A study of Mus musculus with 23 samples.

Results

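Reverted ESCs (rESCs), pluripotent cells returned to an ESC-like state from epiblast stem cells (epiSCs), were set against ESCs kept in 2i/LIF on 11 of the 23 arrays of the series. The members were chosen by their titles alone: all 5 rESC arrays and all 6 ESC arrays marked 2i, with both Blimp1 genotypes pooled. The question was what separates reverted cells from the ground state, the condition in which the inhibitors PD0325901 (MEK) and Chir99021 (GSK3) hold ESCs with LIF. The rESC lines were BL3 and BL7, heterozygous for a Blimp1 mutant allele (Blimp1+/-), and J2.3, BL2 and BL6, null for it (Blimp1-/-), all grown on feeders in medium with LIF and fetal calf serum. The 2i/LIF lines were PAN1, PUM3 and CHE4 (Blimp1+/-) and JAG1, JAG2 and B12 (Blimp1-/-), grown in N2B27 medium with both inhibitors and LIF. No array of either group was wild type for Blimp1, and the labels give every line the same mixed C57Bl6/CBA/129 background. The same 6 ESC lines in serum with LIF, on 6 further arrays, are used below only to place the values. Per the methods, epiSCs came from post-implantation epiblasts and were reverted on mouse embryonic fibroblasts (MEFs). Some of the null epiSCs came from null ESCs passed through tetraploid host embryos. The paper gives those ESCs an inbred background and the epiSCs of heterozygous crosses a mixed one. The lines listed for those crosses do not include J2.3. Its strain may therefore differ from that of the other rESC lines, despite the label, which was not tested. Medium, serum, line and origin all differed between the groups and cannot be told apart, and whether the 2i/LIF cultures had feeders is not given in the sources used here. Each line had 1 array in the main comparison, so its p-values measure the spread between lines. The fits with serum hold the 6 ESC lines in both media and take their arrays as independent.

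RNA was measured on Illumina mouse beadchips, on which the brightness of a probe follows the amount of its transcript in the bulk sample, so that fewer cells with a transcript and less of it per cell cannot be told apart. The rESC arrays detected 12197 to 13809 probes (median 13082) and the 2i/LIF arrays 12657 to 13689 (median 13166), and the precision is set by how few arrays there are. The markers matched the labels. Pou5f1, Nanog, Zfp42 and Esrrb were detected on all 5 rESC and all 6 2i/LIF arrays, and the epiSC markers Foxa2 and Lhx1 on none of them. Fgf5, another epiSC marker, was detected on 4 of 5 rESC and 0 of 6 2i/LIF arrays, at a median log2 signal of 5.22 in rESCs and 8.13 in epiSCs. The fibroblast gene Dcn was detected on 5 of 5 rESC and 0 of 6 2i/LIF arrays and Col1a1 on 5 of 5 and 1 of 6, whereas Col3a1 was detected on none and Col1a2 on 0 of 5 and 1 of 6. The Y-linked gene Eif2s3y was detected on 3 of 5 rESC arrays (BL3, BL2 and BL6) and 1 of 6 2i/LIF arrays (PAN1). Kdm5d, also Y-linked, was detected on none of them and Uty on 0 of 5 rESC and 2 of 6 2i/LIF arrays. A difference in sex between the groups thus cannot be told apart from the other differences. The array of J2.3 stood apart from the other rESC arrays: over the probes tested, pairs of rESC arrays correlated at 0.921 to 0.981 (median 0.959), and at 0.958 to 0.981 (median 0.971) without it. Results are therefore given with J2.3 and, where they change, without it.

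Mouse ESCs are balanced between self-renewal and readiness to differentiate by a few signals. FGF acts through MEK and ERK and switches on its own feedback inhibitors, the Dusp phosphatases and the Sprouty proteins. WNT, or the block of GSK3 that stands in for it, stabilizes beta-catenin, which acts with TCF factors at genes such as Sp5 and Axin2. LIF acts through STAT3, and serum brings BMP and growth factors, among them those that drive actin genes through SRF at a DNA element called the CArG box. Because 2i blocks MEK and GSK3 directly, the genes downstream of these kinases are the readouts of most interest here.

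The promoters of 5 genes to which the results return are shown to give the reader the letters behind these pathways. Each is the 250 bases before the annotated start in RefSeq (GRCm38.p6), read 5′ to 3′ on the gene's own strand: Sp5 (chr2:70474673-70474922, plus strand), Cd3d (chr9:44981536-44981785, plus), Cd3g (chr9:44980432-44980681, minus), Acta1 (chr8:123894776-123895025, minus) and Dusp5 (chr19:53528895-53529144, plus). Capitals mark CTTTGAT, a TCF motif, on either strand in the first 3 and the CArG box in the last 2.
Sp5: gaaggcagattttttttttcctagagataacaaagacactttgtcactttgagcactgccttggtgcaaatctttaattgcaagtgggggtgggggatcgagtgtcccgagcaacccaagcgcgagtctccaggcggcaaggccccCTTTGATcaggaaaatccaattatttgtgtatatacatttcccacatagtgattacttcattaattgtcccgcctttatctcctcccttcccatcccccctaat
Cd3d: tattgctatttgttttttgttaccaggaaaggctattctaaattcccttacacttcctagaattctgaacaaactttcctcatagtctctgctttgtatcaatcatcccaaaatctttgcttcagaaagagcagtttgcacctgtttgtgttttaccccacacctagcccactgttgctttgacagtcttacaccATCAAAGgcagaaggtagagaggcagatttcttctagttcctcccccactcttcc
Cd3g: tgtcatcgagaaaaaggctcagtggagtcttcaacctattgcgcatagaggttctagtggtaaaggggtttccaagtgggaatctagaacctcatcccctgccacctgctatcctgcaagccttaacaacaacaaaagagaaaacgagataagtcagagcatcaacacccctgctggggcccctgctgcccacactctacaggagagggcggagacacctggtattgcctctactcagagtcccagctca
Acta1: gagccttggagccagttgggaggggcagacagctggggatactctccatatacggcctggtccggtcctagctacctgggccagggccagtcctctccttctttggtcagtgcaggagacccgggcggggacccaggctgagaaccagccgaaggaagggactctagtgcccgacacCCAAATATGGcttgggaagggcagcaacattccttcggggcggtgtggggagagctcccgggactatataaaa
Dusp5: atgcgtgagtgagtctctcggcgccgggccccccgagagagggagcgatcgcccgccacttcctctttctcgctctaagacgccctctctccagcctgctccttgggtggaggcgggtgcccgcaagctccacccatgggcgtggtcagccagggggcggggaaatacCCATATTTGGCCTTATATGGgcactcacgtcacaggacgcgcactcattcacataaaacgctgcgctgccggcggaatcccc
Sp5 has CTTTGAT once, beginning 104 bases before the start, Cd3d has it on the opposite strand 55 bases before the start, and Cd3g does not have these letters in this window. The CArG box begins 73 bases before the start of Acta1, and Dusp5 has 2 that overlap, at 82 and 72 bases. Windows of this length held CTTTGAT in 3.21% and the CArG box in 1.47% of all 32851 promoters of the table. Of the promoters of genes called higher in rESCs 1.65% and 1.26% held them. The shares were 2.37% and 1.34% for promoters of genes called lower and 2.34% and 1.22% for those of all genes tested. With each gene counted once the shares were 2.21% and 1.69% for genes called higher. They were 2.92% and 1.72% for genes called lower, and 2.83% and 1.52% for all genes tested. A match is a description of the sequence only.

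Of 13516 probes tested, 2538 (18.8%) differed between rESCs and ESCs in 2i/LIF at an adjusted p under 0.01 (limma, Benjamini-Hochberg), here written as called. They named 1888 genes. Of these probes 1321 (9.77%) were higher and 1217 (9% of those tested) lower in rESCs, and 1214 changed over 2-fold. For 2436 probes (18%) no rESC array overlapped any 2i/LIF array. Without J2.3, 3127 probes (23.1%) were called, 1683 (12.5%) higher and 1444 (10.7%) lower; of the 2538 calls 2370 were also made without it, and all 2538 kept their direction. The median standard deviation over probes was 0.282 on the log2 scale among the 5 rESC arrays, 0.230 without J2.3 and 0.232 among the 2i/LIF arrays. The median change over all probes was -0.02. With arrays scaled to their medians in place of quantiles it was 0.206, and the calls then split into 1623 higher and 516 lower.

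In the same terms the rESCs lay close to ESCs in serum. When the 17 arrays of the 3 cultures were fitted together, 369 of 14601 probes (2.53%) separated rESCs from ESCs in serum, 206 (1.41%) higher and 163 (1.12%) lower in rESCs. In the same fit 4355 (29.8%) separated ESCs in serum from ESCs in 2i/LIF, 2218 (15.2%) higher and 2137 (14.6%) lower in serum. These comparisons share arrays with the main one, so their values are given only side by side. The number of rESC against serum calls rests on single arrays, being 39 without the rESC line BL6 and 1294 without the serum array of B12. It was 26 when these 2 states were fitted alone, on their 11 arrays. For this comparison only rESC and serum arrays were left out.

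Genes downstream of FGF and ERK were higher in rESCs. Of 25 listed response genes 21 were named on the array and 18 tested, and 13 were called higher and 0 lower, with a median change of 1.73. Without J2.3 it was 15 higher and 0 lower. Here, as for each list below, a gene lit in only 1 group passed the detection filter because of that group, so the counts are descriptions. The counts of every list stand beside 9.77% called higher and 9% called lower of all probes tested, and no list was tested against these shares. Dusp6, the ERK phosphatase chosen as a marker of this comparison, read 10.18, 9.79, 9.85, 10.12 and 10.41 in the rESC lines BL3, BL7, J2.3, BL2 and BL6, the order kept below, and 6.80 to 7.86 (median 7.45) in ESCs in 2i/LIF, all as normalized log2 signal. Every rESC array lay over 1 log2 unit above every 2i/LIF array, and the change was 2.68 (SE 0.20, adjusted p = 1.69e-06). In serum Dusp6 read 8.51 to 10.34 (median 9.26) in the 17-array normalization.

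Dusp4, a nuclear phosphatase of the same family, read 8.81, 7.36, 7.66, 9.16 and 8.86 in rESCs and 4.37 to 5.44 (median 5.02) in ESCs in 2i/LIF, where 3 of 6 arrays detected it (3.40, SE 0.33, adjusted p = 1.11e-05). BL7 and J2.3 were the lowest rESC lines but still lay above all 2i/LIF arrays. Spry4, a Sprouty inhibitor of the pathway, read 7.19, 6.50, 5.67, 7.32 and 7.46 in rESCs and was not above background on any 2i/LIF array (4.38 to 4.73 (median 4.46)). It was at least 3.29-fold higher (adjusted p = 4.79e-05), where the bound sets the mean of the rESC arrays against the lowest detected signal of the 2i/LIF arrays. Phosphatases and a Sprouty inhibitor were thus both among the higher genes. Spred1, a Sprouty-related inhibitor of RAF activation, read 8.32, 7.52, 7.49, 8.31 and 8.79 in rESCs and 5.75 to 6.39 (median 6.15) in ESCs in 2i/LIF (1.98, adjusted p = 4.39e-05).

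Several immediate-early genes and other targets were higher too, while Egr1, an immediate-early factor, did not pass the test (0.52, adjusted p = 0.455). Dusp5, a nuclear ERK phosphatase whose promoter holds the overlapping CArG boxes shown above, read 6.06, 6.57, 7.43, 6.77 and 7.28 in rESCs and 4.50 to 5.57 (median 5.06) in ESCs in 2i/LIF (1.72, adjusted p = 0.000245). Ier3, an early response gene, changed by 2.64 and Phlda1 by 2.63, and J2.3 was the highest rESC line for both (10.80 and 8.72, against 8.79 to 9.39 and 7.36 to 8.06 in the other rESC lines). The AP-1 subunits Fos (2.04, adjusted p = 0.00326), Fosb (1.74) and Junb (2.04) were called, and Fos lost its call without BL6 (adjusted p = 0.0103). In ESCs in 2i/LIF Fos read 4.92 to 8.07 (median 6.99), a spread of more than 3 log2 units. Klf6 (1.41) and Dusp1 (0.98) completed the early genes that rose.

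The Ets factors of the PEA3 group, which FGF switches on in many tissues, were split. Etv4 read 8.07, 8.03, 7.33, 7.80 and 8.05 in rESCs and 5.73 to 7.57 (median 6.04) in ESCs in 2i/LIF, where B12 alone was near the rESC range (1.61, adjusted p = 0.00111). Etv5 read 9.36, 9.17, 7.94, 9.37 and 9.22 in rESCs and 8.72 to 9.04 (median 8.83) in ESCs in 2i/LIF and was not called (0.15, adjusted p = 0.628). J2.3 was the only rESC line below the 2i/LIF range, and without it Etv5 was called (0.42, adjusted p = 0.00847). Etv1 (0.79), Ccnd1 (0.25) and Epha2 (0.29) were not called. Spred2, Egr2 and Myc did not pass the detection filter, and Spry1, Spry2, Fosl1 and Ier2 were not analysed here.

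WNT response genes were mostly lower in rESCs, though not together. Of 19 listed genes 15 were named and 9 tested, of which 5 were called lower and 2 higher, with a median change of -1.77 (-0.25 over all named genes, with no detection filter). Sp5, a zinc finger factor and direct WNT target that served as the other marker, read 8.63, 6.71, 5.36, 7.52 and 8.53 in rESCs and 8.90 to 9.94 (median 9.69) in ESCs in 2i/LIF. No array overlapped, but the rESC lines spread over more than 3 log2 units, with BL3 and BL6 near the 2i/LIF range and J2.3 far below it. The change was -2.20 (SE 0.49, adjusted p = 0.00463), and -1.70 without J2.3 (adjusted p = 0.0026). The call was lost when BL7, BL2, PAN1, CHE4, JAG1 or B12 was left out (adjusted p up to 0.0135).

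In serum Sp5 was detected on 1 of 6 arrays, at 4.31 to 5.27 (median 4.49), so that the rESC mean lay between those of the ESC cultures. The rESCs exceeded the serum ESCs by 2.64 (adjusted p = 0.00265; 0.0102 without BL6, and 0.0243 with the 2 states fitted alone). In epiSCs Sp5 read 7.55 to 9.01 (median 8) in the 23-array normalization. Notum, a secreted enzyme that inactivates WNT ligands, read 6.17, 6.50, 6.57, 6.01 and 6.49 in rESCs and 8.22 to 9 (median 8.73) in ESCs in 2i/LIF (-2.32, SE 0.15, adjusted p = 9.4e-07). It varied little between lines of either group and also lay between the ESC cultures, at 4.40 to 5.73 (median 4.70) in serum, where 1 of 6 arrays detected it. The rESCs exceeded serum by 1.5 (adjusted p = 0.000576, at most 0.0032 with any 1 rESC or serum array left out). With the 2 states fitted alone the call was kept (adjusted p = 0.00858).

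Axin2, the negative feedback gene of the pathway, read 6.61, 5.01, 6.13, 6.99 and 6.80 in rESCs and 7.78 to 8.44 (median 8.03) in ESCs in 2i/LIF (-1.77, adjusted p = 0.000703). BL7 was the lowest rESC line, and in serum Axin2 read 5.35 to 6.36 (median 6), a difference of 0.33 from rESCs that did not pass the test (SE 0.28, adjusted p = 0.452). Cdx2, a homeobox factor of trophectoderm and posterior mesoderm that beta-catenin can induce, was not above background on any rESC array (5.01, 4.48, 5.14, 4.88 and 4.72) and read 6.21 to 8.70 (median 7.99) in ESCs in 2i/LIF. It was at least 5.76-fold lower in rESCs (adjusted p = 0.000205), and the 2i/LIF lines themselves spread over more than 2 log2 units. Tnfrsf19, a receptor induced by WNT, changed by -1.87 (adjusted p = 9.61e-05).

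The other direction was taken by Fzd7, a WNT receptor, and Ccnd2, a cyclin on which several pathways converge. Fzd7 read 9, 8.11, 7.67, 9.22 and 8.78 in rESCs and 5.49 to 6.73 (median 6.43) in ESCs in 2i/LIF (2.35, adjusted p = 0.000128). Ccnd2 read 7.21, 8.15, 8.85, 7.4 and 7.90 in rESCs and 4.40 to 5.90 (median 4.65) in ESCs in 2i/LIF (3.01, adjusted p = 2.83e-05). Cdx1 (-0.75, adjusted p = 0.0215) was not called. Of the runs with 1 array left out it was called only without BL6 (adjusted p = 0.00752). It was also called when the 17 ESC-type or the 22 pluripotent arrays were fitted together. Apcdd1 was not called (-0.45). Lef1, Nkd1, Nkd2, Dkk1, Lgr5 and Sox17 did not pass the detection filter.

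**Figure D1:**
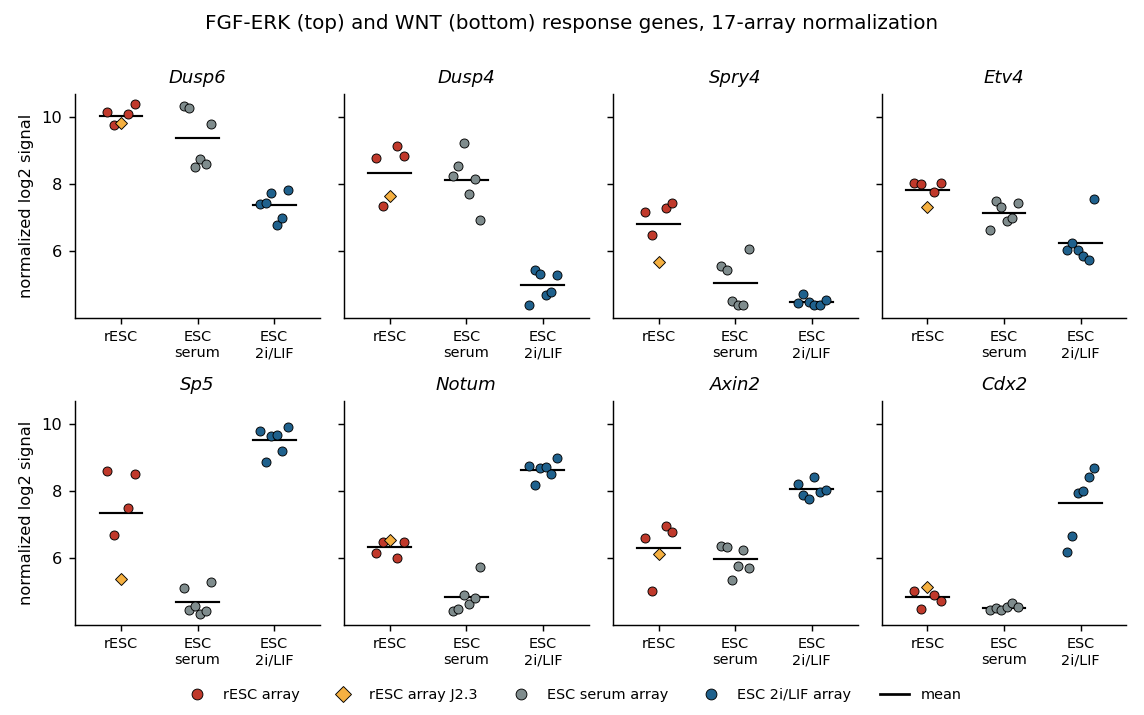
Normalized log2 signal (y axis) of 4 FGF-ERK response genes (top) and 4 WNT response genes (bottom) on each rESC, ESC serum and ESC 2i/LIF array, from the normalization over 17 arrays; points are arrays, the diamond is rESC J2.3 and lines are means. Sp5 and Notum in rESCs lie above most serum arrays and below all 2i/LIF arrays, with Notum 1.5 above serum, while Dusp6 in rESCs lies above every 2i/LIF array.

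In the naive pluripotency network 5 of 20 genes tested were called lower and 1 higher, with a median change of -0.35. Of the 20 genes 14 did not pass the test. Over all 20, the called genes included, 13 had an unadjusted p under 0.05 (limma). The median log2 level over the list was 7.78 to 8.47 on the rESC arrays and 8.75 to 9.03 on the 2i/LIF arrays in the 23-array normalization, without overlap. Without J2.3 the calls were 3 lower and 2 higher, and with median scaling 2 were lower. Tfcp2l1, a transcription factor that LIF and GSK3 inhibition both sustain, read 11.19, 10.96, 10.07, 11.07 and 11.33 in rESCs and 12.12 to 12.39 (median 12.28) in ESCs in 2i/LIF (-1.35, SE 0.19, adjusted p = 0.000212). All 6 2i/LIF arrays lay within 0.3 log2 units of each other and above every rESC array. Jam2, a junction adhesion molecule enriched in ESCs, read 6.36, 6.97, 6.62, 5.54 and 6.46 in rESCs and 7.61 to 8.71 (median 7.95) in ESCs in 2i/LIF (-1.71, adjusted p = 0.000446). Its other probes changed by -1.09 (adjusted p = 0.0034), -1.07 (0.0117), -0.72 (0.286) and 0.84 (0.11), and the mean of the Jam2 probes was not called. Tbx3 (-0.73, adjusted p = 0.000218) was also lower, a call lost with median scaling and with the mean of its probes.

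Klf4 read 8.48, 8.52, 7.15, 6.97 and 8.2 in rESCs and 8.59 to 9.35 (median 9.09) in ESCs in 2i/LIF on its brightest probe (-1.20, adjusted p = 0.00683). The call was lost with any of 8 of the 11 arrays left out (adjusted p up to 0.0175), J2.3 among them, and the other Klf4 probes changed by -0.11 and -0.16. Mras, a RAS-family GTPase of the naive list (-0.69, adjusted p = 0.00916), lost its call with any of 10 arrays left out (adjusted p up to 0.024). Rarg, a retinoic acid receptor, was the member called higher (0.76, adjusted p = 0.000747). Esrrb read 12.16, 12.12, 11.17, 12.32 and 12.39 in rESCs and 12.26 to 12.42 (median 12.31) in ESCs in 2i/LIF and was not called (-0.29, adjusted p = 0.255), and its low value was that of J2.3. Klf2 (0.34), Klf5 (0.38), Zfp42 (0.56), Fgf4 (-0.27) and Nr5a2 (-0.79) did not pass the test either.

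Prdm14 and Dppa3, which mark both ESCs and germ cells, narrowly missed the threshold. Prdm14 read 6.21, 7.74, 6.46, 6.42 and 6.41 in rESCs and 6.98 to 8.08 (median 7.76) in ESCs in 2i/LIF (-0.99, adjusted p = 0.015), and it was called without BL7 (the highest rESC line, adjusted p = 0.000809) or without PAN1. Dppa3 read 7.25, 8.22, 8.08, 8.07 and 7.63 in rESCs and 8.04 to 9.31 (median 8.64) in ESCs in 2i/LIF (-0.80, adjusted p = 0.0147, and 0.00586 without B12).

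Most core pluripotency genes were not called. Of 13 tested 3 were called higher and 2 lower, against 9.77% and 9% of all probes tested. The median was 0.11, and 0.372 with median scaling. Pou5f1 read 11.80, 11.82, 11.24, 11.91 and 11.74 in rESCs and 11.26 to 11.56 (median 11.46) in ESCs in 2i/LIF (0.27, adjusted p = 0.122), and Sox2 changed by 0.39 (adjusted p = 0.0671), with J2.3 the lowest rESC line for both. Without J2.3 the change was 0.39 for Pou5f1 (adjusted p = 0.011) and 0.53 for Sox2, which was then called (adjusted p = 0.00336). Nanog read 10.53, 11, 9.90, 9.11 and 10.34 in rESCs and 10.87 to 11.70 (median 11.54) in ESCs in 2i/LIF (-1.27, SE 0.28, adjusted p = 0.00435). BL2 was lowest, BL7 lay inside the 2i/LIF range, and the call was lost without CHE4 or JAG2 (adjusted p up to 0.0118).

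Utf1, a chromatin protein of pluripotent cells, read 9.87, 9.58, 9.40, 9.90 and 9.93 in rESCs and 6.62 to 7.68 (median 7.08) in ESCs in 2i/LIF (2.58, SE 0.19, adjusted p = 1.68e-06). The rESC lines lay within 0.6 log2 units and all far above the 2i/LIF arrays. Dppa4 (1.05, adjusted p = 4.41e-05) and the RNA-binding Lin28a (1.23, adjusted p = 0.00225) were also higher, and the TGF-beta family member Gdf3 was lower (-0.93). Dppa5a (0.11), Trim28 (0.06) and Sall4 (-0.16) were not called.

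**Figure D2:**
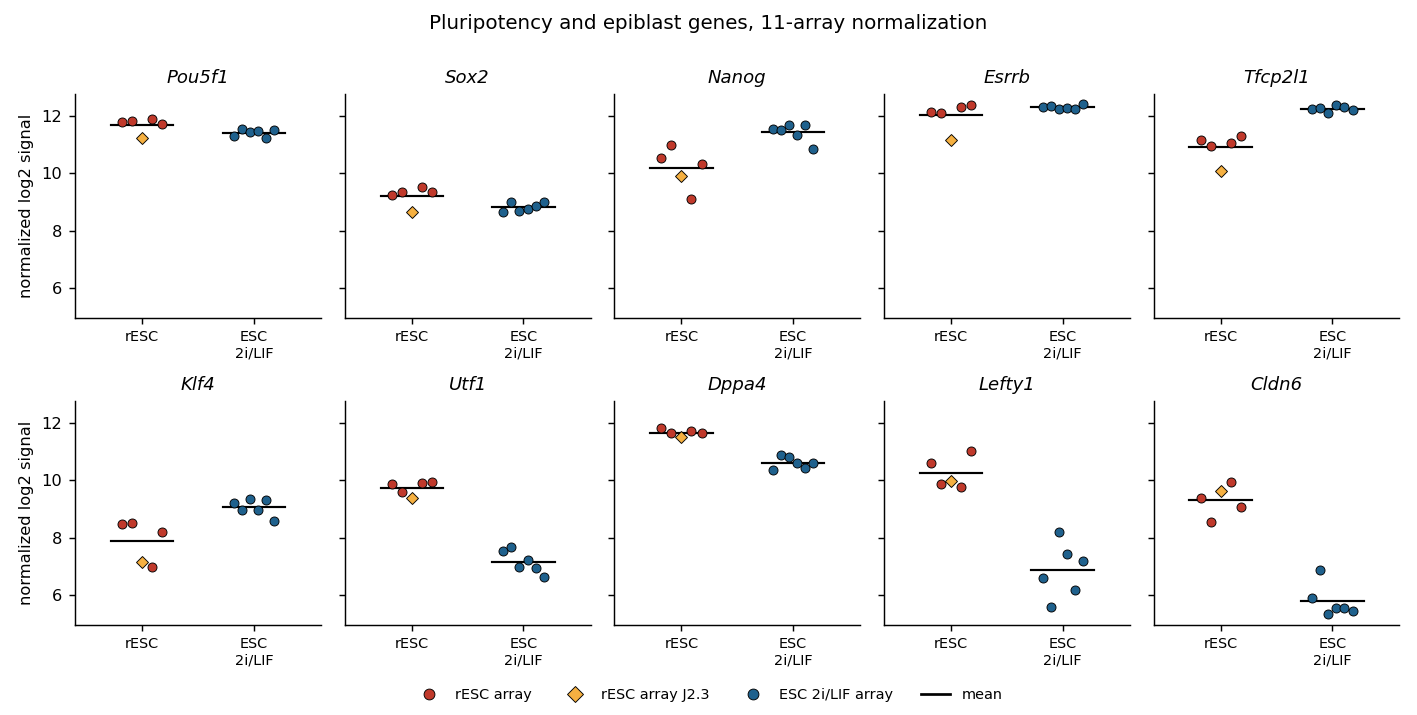
Normalized log2 signal (y axis) of pluripotency and epiblast genes on each rESC and ESC 2i/LIF array, from the normalization over 11 arrays; points are arrays, the diamond is rESC J2.3 and lines are means. Tfcp2l1 lies lower and Utf1 higher on every rESC array than on any 2i/LIF array, and Pou5f1 overlaps.

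Several epiblast genes were higher in rESCs, while the organizer gene Gsc was lower. Of 11 genes tested 6 were called higher and 2 lower, with a median of 1.01 (0.252 over all named genes with no detection filter). Cldn6, a tight-junction claudin of early epithelium, read 9.39, 8.53, 9.63, 9.94 and 9.06 in rESCs and 5.31 to 6.86 (median 5.54) in ESCs in 2i/LIF (3.55, adjusted p = 4.2e-06). Otx2, a homeobox factor of the formative and anterior epiblast, read 9.31, 9.16, 9.17, 9.14 and 8.91 in rESCs and 6.18 to 7.99 (median 7.58) in ESCs in 2i/LIF (1.81, adjusted p = 0.000611). The rESC lines were close to each other for Otx2, whereas CHE4 and B12 were the lowest 2i/LIF lines. Pou3f1, the POU factor Oct6, changed by 2.24 (adjusted p = 3.23e-05) and Krt18, a keratin, was at least 6.02-fold higher (adjusted p = 0.000245), with J2.3 at 9.91 and the other rESC lines at 6.72 to 7.38.

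Gsc, a homeobox gene of the organizer and anterior primitive streak, read 4.96, 5.79, 5.30, 4.95 and 4.85 in rESCs, where 2 of 5 arrays detected it, and 7.78 to 8.62 (median 8.26) in ESCs in 2i/LIF (-3.06, SE 0.20, adjusted p = 7.26e-07). All 2i/LIF arrays lay about 2 log2 units or more above all rESC arrays. In epiSCs, from which the rESCs were made, Gsc read 7.70 to 8.78 (median 8.51) in the 23-array normalization. Nodal, the ligand of the same region, was also lower (-0.48, adjusted p = 0.00668), a call lost with any of 9 arrays left out (adjusted p up to 0.0189).

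The inhibitors and mediators of Nodal and TGF-beta went the other way, with 5 of 9 called higher and 1 lower. Lefty1, a secreted antagonist of Nodal, read 10.61, 9.88, 9.99, 9.77 and 11.04 in rESCs and 5.58 to 8.2 (median 6.87) in ESCs in 2i/LIF (3.41, SE 0.41, adjusted p = 6.12e-05), and Lefty2 changed by 0.81 without passing the test. Inhba, which encodes the activin A subunit, read 7.68, 8.22, 10.58, 7.86 and 8.50 in rESCs and was not above background in ESCs in 2i/LIF (at least 11-fold higher, adjusted p = 1.4e-05). J2.3 was the highest by more than 2 log2 units. Inhba was also bright on the MEF array, at 9.76 in the 23-array normalization. Skil, a SMAD co-repressor induced by TGF-beta, changed by 1.75 (adjusted p = 1.03e-05), and Tgfbr2 (1.40, adjusted p = 0.00873) lost its call with any of 9 arrays left out, J2.3 included (adjusted p up to 0.0205).

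Of 6 BMP targets and ligands tested 3 were called higher and 1 lower. Id1, a BMP-induced inhibitor of differentiation, read 7.09, 6.68, 8.09, 7.38 and 6.69 in rESCs and 4.37 to 5.20 (median 4.78) in ESCs in 2i/LIF (2.41, adjusted p = 2.14e-05), and Id3 changed by 0.76 (adjusted p = 0.00181). Bmp4 itself read 9.83, 8.92, 8.18, 9.32 and 9.31 in rESCs and 7.23 to 7.92 (median 7.44) in ESCs in 2i/LIF (1.59, SE 0.24, adjusted p = 0.000377). In serum Bmp4 read 6.05 to 8.16 (median 6.23), below the rESCs by 2.46 (adjusted p = 0.000576, at most 0.0032 with any 1 rESC or serum array left out). With the 2 states fitted alone the difference was 2.45 and narrowly missed the threshold (adjusted p = 0.0115). On average Bmp4 was thus higher in rESCs than in both ESC cultures, with the serum line at 8.16 near the lowest rESC line. Id4 was lower (-1.08, adjusted p = 0.00186), and Id2 (0.03) and Smad6 (0.15) were not called.

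LIF reached both groups. Of its 13 targets tested 4 were called higher and 2 lower, against 9.77% and 9% of all probes tested. The higher ones, Junb, the mRNA decay factor Zfp36 (1.86, adjusted p = 5.86e-05), Cebpb (1.63, adjusted p = 0.00537) and the kinase Pim3 (1.19, adjusted p = 0.00157), are induced by other signals too. Cebpb lost its call without BL7, J2.3, BL6 or PUM3 (adjusted p up to 0.0165). The lower ones were Klf4 and Tfcp2l1, described above. The feedback inhibitor Socs3 (0.42, adjusted p = 0.132) and Stat3 itself (0.13, adjusted p = 0.613) did not pass the test.

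The largest changes of all were rises in genes of actin, extracellular matrix and secreted proteases. Of 15 SRF and actin targets tested 9 were called higher and 0 lower (median 1.33), and of 21 fibroblast genes 15 were called higher and 0 lower (median 1.60; 14 higher without J2.3). The collagen, laminin and integrin list had 10 higher and 3 lower of 18, the lower count being 0 with median scaling. Acta2, smooth muscle actin, read 10.69, 11.50, 12.45, 10.58 and 11.44 in rESCs and 4.30 to 4.46 (median 4.35) in ESCs in 2i/LIF, where no array detected it, and was at least 74.5-fold higher (adjusted p = 1.55e-08). Its 3 other probes changed by 2.94 to 3.93. Acta1, skeletal actin, whose promoter is shown above with its CArG box, read 6.95, 6.99, 7.60, 7.42 and 7.27 in rESCs and 4.26 to 4.70 (median 4.37) in ESCs in 2i/LIF (at least 4.39-fold higher, adjusted p = 9.31e-08). The rESC lines lay within 0.7 log2 units of each other for Acta1.

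Tropomyosin 1 (Tpm1) read 9.75, 9.93, 10.86, 9.97 and 10.32 in rESCs and 6.82 to 8.26 (median 7.56) in ESCs in 2i/LIF (2.64, adjusted p = 1.11e-05), and Tpm2 was at least 6.15-fold higher. Actb (0.33), Vcl (0.15) and Srf (-0.05) did not pass the test. Of the matrix genes Bgn, a small proteoglycan, read 10.12, 10.45, 11.90, 10.53 and 10.72 in rESCs and 4.39 to 4.53 (median 4.42) in ESCs in 2i/LIF (at least 49.7-fold higher, adjusted p = 1.55e-08). Lox, which crosslinks collagen, was at least 9.46-fold higher, with J2.3 at 10.03 and the other rESC lines at 7.66 to 8.05. Thy1, a surface marker of fibroblasts, read 8.02, 8.75, 9.73, 8.21 and 8.76 in rESCs and 4.44 to 6.01 (median 5.26) in ESCs in 2i/LIF (3.45, adjusted p = 3.37e-05).

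Proteases, their inhibitor and chemokines rose with them. Mmp3, stromelysin 1, read 8.44, 9.13, 11.52, 9.42 and 9.10 in rESCs and was at least 21.3-fold higher (adjusted p = 2.65e-06), with J2.3 over 2 log2 units above the others. Mmp13 was at least 12.4-fold, Timp2 at least 11.5-fold, Ccl7 at least 15.9-fold and Cxcl1 at least 9.49-fold higher, each with 0 of 6 2i/LIF arrays above background. Mmp14 (at least 7.33-fold higher), Mmp2 (2.84), Cd44 (at least 4.39-fold higher), Tnc (at least 7.79-fold higher) and the basement membrane collagens Col4a1 (1.91) and Col4a2 (at least 2.55-fold higher) were also called. The laminins Lama1 (-0.89) and Lamc1 (-0.51) and the integrin Itgb5 (-1) were lower, and Sparc (-0.40), Timp1 (0.75) and Fn1 (0.69) were not called. A dimmer Sparc probe was called lower (-1.34, adjusted p = 0.00301).

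These genes are also bright in fibroblasts, and rESCs were grown on them. The median log2 level over the named fibroblast genes was 6.85 to 8 on the rESC arrays (J2.3 the highest, 7.42 the highest of the others), 7.02 to 7.65 on the serum arrays, 10.87 on the MEF array and 4.62 to 4.80 on the 2i/LIF arrays. For the SRF and actin list it was 7.17 to 7.93 on the rESC arrays, 7.05 to 7.75 on the serum arrays, 9.43 on the MEF array and 4.64 to 5.06 on the 2i/LIF arrays. Col3a1 was at background on all rESC and 2i/LIF arrays and Col1a2 on all rESC arrays. The MEF array detected both, but they were dim there, at 6.85 for Col3a1 and 7.4 for Col1a2, against 12.55 for Col1a1. Whether a few percent of such dim signals would be detected on an rESC array was not tested. Of the probes called higher in rESCs 28.46% were over 2-fold brighter on the MEF array than in rESCs, against 12.82% of those called lower and 12.51% of all probes tested. For 17 probes bright on the MEF array and dark on all 2i/LIF arrays, chosen with their values seen, the median rESC signal was 2.33% of the MEF signal in BL3, 3.59% in BL7, 8.08% in J2.3, 2.4% in BL2 and 3.46% in BL6. The serum arrays gave 1.99% to 3.28%. The part of fibroblast RNA in these rises was not tested.

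**Figure D3:**
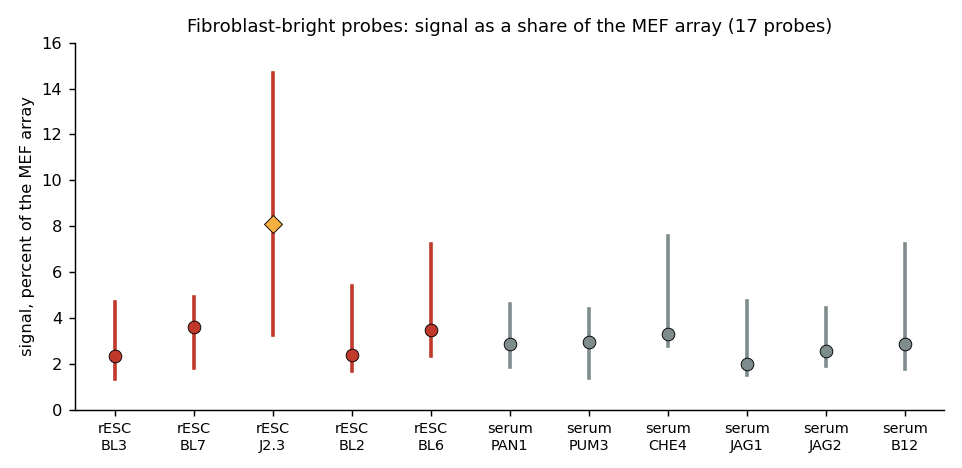
Signal of 17 fibroblast-bright probes on each rESC and ESC serum array, net of the 2i/LIF level, as a percent of their signal on the MEF array (y axis); the marks show the median and quartiles over probes. J2.3 had the highest median, 8.08%, and the other rESC lines 2.33% to 3.59%, against 1.99% to 3.28% on the serum arrays.

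Some other large rises were in genes that the MEF array did not detect. Such probes were not frequent among the rises: 15.82% of those called higher, against 36.81% of those called lower and 20.71% of all tested. Esrp1, a splicing regulator of epithelial cells, read 9.12, 8.32, 9.08, 9.31 and 8.65 in rESCs and 4.33 to 4.85 (median 4.63) in ESCs in 2i/LIF (at least 13.8-fold higher, adjusted p = 1.78e-08), and 4.37 on the MEF array, not detected. The 5 rESC lines lay within 1 log2 unit and no line stood out. Cldn6, Lefty1, Krt8 (3.45, adjusted p = 7.9e-05) and Krt18 also went undetected on the MEF array. The 15 largest such rises without overlap of the groups further held Zscan4c, the prolactin family genes Prl2c2, Prl2c3 and Prl2c4, which are near-identical and thus uncertain, Slc7a7, Spink1, Grb7, Tcf15, Mmp10 and Fgf17. Mmp3 was detected on the MEF array but dimmer there (7.65) than on any rESC array. The imprinted growth factor gene Igf2 read 9.02, 9.47, 10.10, 9.78 and 9.58 in rESCs and 5.06 to 5.70 (median 5.41) in ESCs in 2i/LIF (4.19, adjusted p = 3.38e-08) and 14.36 on the MEF array.

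The largest falls were in genes of the CD3 complex of T cells. Cd3d read 4.37, 4.40, 4.57, 4.31 and 4.33 in rESCs, where no array detected it, and 7.35 to 9.69 (median 9.40) in ESCs in 2i/LIF, and was at least 15.7-fold lower (adjusted p = 1.69e-06). Cd3g read 4.25, 4.28, 4.60, 4.27 and 4.36 in rESCs, again on no array above background, and 7.94 to 9.58 (median 9.05) in ESCs in 2i/LIF (at least 14-fold lower, adjusted p = 1.52e-07). Cd3e was at least 4.31-fold lower (adjusted p = 5.06e-07), with 0 of 5 rESC and 6 of 6 2i/LIF arrays above background. All 3 genes were thus present on every 2i/LIF array, PAN1 being the lowest for Cd3d. The start sites of Cd3d and Cd3g lie 1355 bases apart on opposite strands of chromosome 9, head to head, and Cd3e lies nearby on the same chromosome. In serum Cd3d was detected on 4 of 6 arrays (4.22 to 5.99 (median 5.21)), Cd3g on 0 and Cd3e on 5.

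Of the macrophage and lysozyme list only 3 genes were tested, of which 2 were called higher and 1 lower, with a median change of 4.01. That median is the change of the chemokine Cxcl1, named above. The genes with values below were all lower and do not include the 2 called higher. Of the defining macrophage markers Tyrobp was detected on no array of either group and Csf1r on 0 of 5 rESC and 3 of 6 2i/LIF arrays. Spic, an Ets factor first known from macrophages, read 4.95, 6.22, 5.98, 5.16 and 4.87 in rESCs and 8.05 to 9.50 (median 9.12) in ESCs in 2i/LIF (-3.52, adjusted p = 5.34e-06). Laptm5, a lysosomal protein of blood cells, read 10.47, 10.37, 10.50, 10.30 and 10.51 in rESCs and 11.69 to 12.48 (median 12.16) in ESCs in 2i/LIF (-1.68, adjusted p = 9.05e-06). Osm, a cytokine of the LIF family, read 5.40, 6.28, 5.46, 5.28 and 5.16 in rESCs and 8.34 to 9.25 (median 8.91) in ESCs in 2i/LIF (-3.38, adjusted p = 6.69e-07), with BL7 the highest rESC line. For all of Spic, Laptm5 and Osm every 2i/LIF array lay at least 1 log2 unit above every rESC array.

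Meis2, a TALE homeobox factor, read 5.49, 6.74, 7.13, 5.69 and 6.38 in rESCs and 8.84 to 9.88 (median 9.48) in ESCs in 2i/LIF (-3.13, adjusted p = 8.86e-06). Other large falls were those of the channel gene Pkd2l1 (-3.60), the kinase gene Dclk3 (-3.27), Pdzrn4 (at least 5.09-fold lower), 2510009E07Rik (-2.97) and Pglyrp1 (-2.91), a peptidoglycan recognition protein. None of these genes except Meis2 and 2510009E07Rik was detected on the MEF array.

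**Figure D4:**
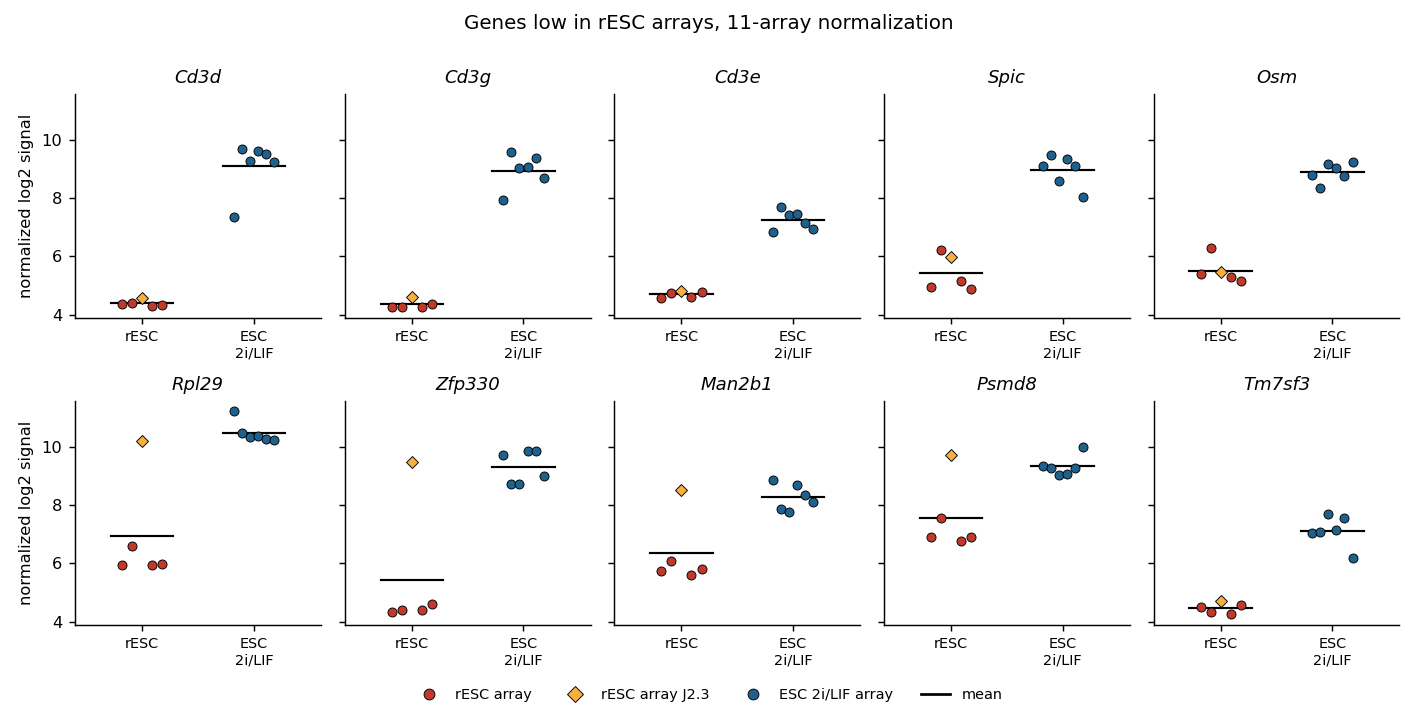
Normalized log2 signal (y axis) of genes low in rESCs, on each rESC and ESC 2i/LIF array, from the normalization over 11 arrays; points are arrays, the diamond is rESC J2.3 and lines are means. Cd3d, Cd3g and Cd3e are at background on all 5 rESC arrays and above it on all 6 2i/LIF arrays, whereas for Rpl29, Zfp330, Man2b1 and Psmd8 J2.3 sits with or near the 2i/LIF arrays.

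The genes called for fatty acid synthesis were lower and those called for glycolysis higher. Of 10 fatty acid synthesis genes tested 6 were called lower and 0 higher, with a median of -0.78 (3 lower with median scaling). Scd1, which makes monounsaturated fatty acids, read 7.46, 7.18, 6.40, 7.01 and 6.13 in rESCs and 9.05 to 9.57 (median 9.29) in ESCs in 2i/LIF (-2.45, SE 0.22, adjusted p = 6.93e-06). Its relative Scd2 read 6.34, 5.42, 5.26, 6.36 and 5.90 in rESCs and 7.70 to 8.12 (median 7.93) in ESCs in 2i/LIF (-2.04, adjusted p = 1.37e-05). Malic enzyme 1 (Me1, at least 1.76-fold lower), Acsl3 (-0.89), Fads1 (-0.74) and Elovl6 (-0.55) were also lower, and Elovl6 lost its call without BL3, JAG1 or JAG2 (adjusted p up to 0.0111). Of 14 cholesterol genes only Ebp was called (-1.30, adjusted p = 0.00918), and not when any of 8 arrays was left out, J2.3 among them (adjusted p up to 0.0268).

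Of 14 glycolysis genes 6 were called higher and 0 lower (median 0.63). Pdk1, a kinase that inhibits pyruvate dehydrogenase, read 9.92, 8.80, 7.70, 9.99 and 9.85 in rESCs and 5.06 to 6.41 (median 5.73) in ESCs in 2i/LIF (3.52, adjusted p = 3.1e-05). J2.3 was the lowest rESC line but still above all 2i/LIF arrays. Pfkl (1.26), Tpi1 (0.99), the glucose transporter Slc2a1 (0.84), Aldoa (0.72) and Ldha (0.78) made up the rest, and Ldha lost its call without BL2 (adjusted p = 0.0102). Of 20 genes of oxidative phosphorylation only Cox5a was called (-0.54). Asns, asparagine synthetase (-1.71, adjusted p = 0.000151), and the stress factor Atf5 (-1.51, adjusted p = 0.00261) were lower, and the glycine decarboxylase Gldc was higher (0.94, adjusted p = 0.00398), a call lost without BL3, BL2, BL6 or JAG2 (adjusted p up to 0.0128).

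Of 12 genes that write, read or erase DNA methylation 6 were called higher and 1, Uhrf1, lower (0 lower with median scaling). Dnmt3b, a de novo methyltransferase, changed by 1.01 (adjusted p = 0.000123), and its cofactor Dnmt3l changed by 1.08 without passing the test (adjusted p = 0.0189). Tet1, which oxidizes 5-methylcytosine, read 10.25, 9.90, 9.13, 10.29 and 10.70 in rESCs and 8.47 to 9.03 (median 8.88) in ESCs in 2i/LIF (1.23, adjusted p = 0.00155). Enzymes that write and that erase the mark were thus both among the higher genes. Gadd45g, a stress gene also linked to demethylation, read 9.22, 8.63, 9.61, 9.37 and 9.20 in rESCs and 5.44 to 6.32 (median 6.01) in ESCs in 2i/LIF (3.23, adjusted p = 3.06e-07), and Gadd45a changed by 2.21 (adjusted p = 0.000279). The maintenance enzyme Dnmt1 (-0.26) was not called.

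Of 17 polycomb genes 5 were called lower and 1 higher, with a median of 0.00. Bmi1 (-1.08), Cbx8 (at least 1.39-fold lower) and Kdm2b (-0.93) were lower and Phc1 was higher (1.04, adjusted p = 0.00115), while the core subunit Suz12 (-0.38) was not called. With median scaling 2 were lower.

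Of 15 germline genes 3 were called higher and 2 lower, against 9.77% and 9% of all probes tested. Dazl, an RNA-binding protein of germ cells, read 5.67, 6.66, 7.23, 4.90 and 5.22 in rESCs and 7.12 to 9.44 (median 9.04) in ESCs in 2i/LIF (-2.86, adjusted p = 0.000598), with J2.3 and PAN1 overlapping. Rhox5, an X-linked homeobox gene (-1.99, adjusted p = 0.00607), was also lower, but not called without BL3, BL2, BL6, CHE4, JAG1 or JAG2 (adjusted p up to 0.0185). Tdrkh (2.3, adjusted p = 1.72e-06) and Dnd1 (1.51, adjusted p = 0.000753) were higher, as was Ddx4 (0.48), whose call was lost without BL7 or CHE4 (adjusted p up to 0.011). Kit, the receptor of germ cell migration, was -1.38 on its brightest probe (adjusted p = 0.0116), which was called without J2.3 (-0.95, adjusted p = 0.002) or without BL7. The other Kit probe, dimmer, was called lower (-1.23, adjusted p = 0.000874). Without J2.3 the list had 3 higher and 5 lower.

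Zscan4c, of a gene family switched on in 2-cell embryos and in rare ESCs, read 8.07, 9.80, 10.18, 6.69 and 7.71 in rESCs and 4.35 to 5.43 (median 4.58) in ESCs in 2i/LIF (3.74, SE 0.53, adjusted p = 0.000215). The lines spread over more than 3 log2 units, J2.3 and BL7 being the highest, and the near-identical copies of this gene make its identity uncertain. Imprinted genes had 4 of 10 called higher and 0 lower. Phlda2 (2.65, adjusted p = 0.00169), the cell cycle inhibitor Cdkn1c (2.49, adjusted p = 0.000718) and Dlk1 (1.82, adjusted p = 0.000115) joined Igf2, and the MEF array read 12.10 for Cdkn1c, 11.57 for Dlk1 and 4.48 for Phlda2.

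Of 9 genes tested for interferon response and MHC class I 4 were called higher and 0 lower. B2m, the light chain of MHC class I, read 8.74, 8.93, 10.60, 8.97 and 9.29 in rESCs and 7.11 to 7.56 (median 7.39) in ESCs in 2i/LIF (1.97, adjusted p = 0.000195), with J2.3 the highest. The immunoproteasome subunits Psmb8 (at least 3.32-fold higher) and Psmb10 (1.53) and the regulator Irf1 (0.97, adjusted p = 0.00514) were the others, and Irf1 lost its call without BL3, BL2, CHE4, JAG1, JAG2 or B12 (adjusted p up to 0.0159). Gbp2, an interferon-induced GTPase outside the list, was at least 10.7-fold higher (adjusted p = 9.83e-07). B2m read 11.89 on the MEF array, above every rESC array.

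Of 19 ribosomal protein genes tested 0 were called by limma, while 3 had an unadjusted p under 0.05; Rpl29, described below, was not on the list. Among 15 cell cycle genes Ccne1, the S-phase cyclin E1, was higher, at 8.43, 8.6, 7.85, 8.25 and 8.31 in rESCs and 6.84 to 7.46 (median 7) in ESCs in 2i/LIF (1.23, adjusted p = 7.61e-05), and the inhibitor Cdkn1a (-1.28, adjusted p = 0.00202) and the mitotic kinase Aurka (-0.61) were lower. Of primitive endoderm genes 4 of 8 were called higher, among them Col4a1, Col4a2 and Lrp2 (at least 1.92-fold higher), while Gata6 was detected on 2 of 5 rESC and 2 of 6 2i/LIF arrays and Sox17 on none. The fourth, Amn (0.72, adjusted p = 0.00758), lost its call with any of 7 arrays left out, J2.3 among them (adjusted p up to 0.0177). Of 5 neural genes tested 3 were called, Sox11 (1.77) and Map2 (1.13) higher and Mapt lower (-1.23). Of 13 hypoxia and stress genes 3 were called higher, Gadd45a among them, and 3 lower, among them the metal-binding Mt2 (-1.32) and the antioxidant enzyme Nqo1 (-1.46).

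**Figure D5:**
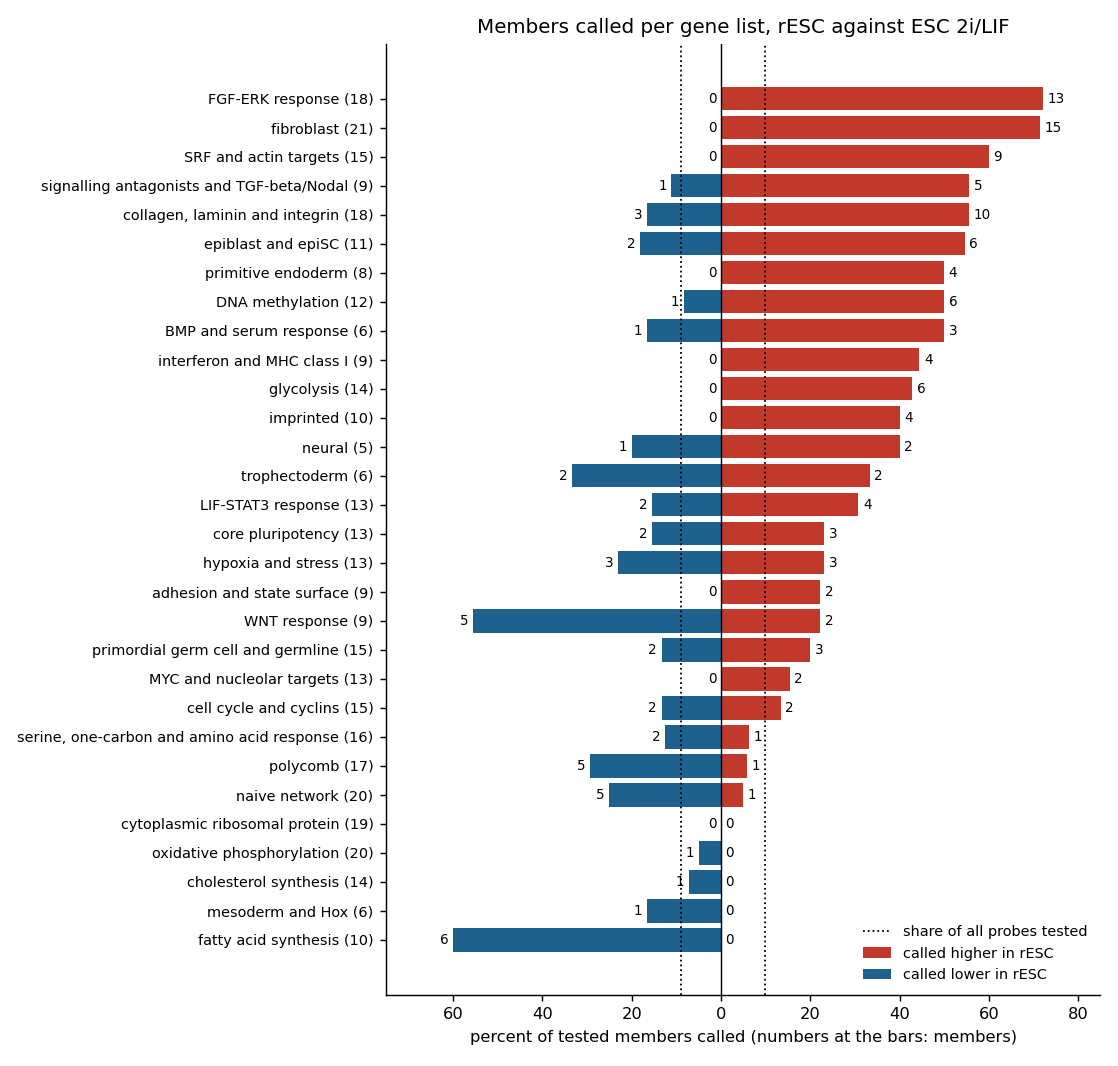
Percent of the tested members of each gene list called higher (right) or lower (left) in rESCs than in ESCs in 2i/LIF (x axis), with the number of members tested in parentheses and called at the bars; dotted lines give the share of all probes tested, 9.77% higher and 9% lower. FGF-ERK, fibroblast and SRF lists have 0 lower calls, and fatty acid synthesis has 0 higher.

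Some probes set rESCs apart from both ESC cultures. The 8 with the largest change against the nearer culture were those of Rpl29, Zfp330, Tm7sf3, Kif23, Sp5, Man2b1, Psmd8 and Spry4. For 6 of them the rESCs were lower than both, whereas Sp5 lay between them and Spry4 was higher than both (1.75 above serum, adjusted p = 0.00442, lost with any of 6 arrays left out). Of the calls against serum, that of Psmd8 was lost with any of 7 arrays left out (adjusted p up to 0.0225), that of Man2b1 with any of 6 (up to 0.013), that of Kif23 with any of 5 (up to 0.0183) and that of Zfp330 without BL7, BL6 or the serum array of JAG1 (up to 0.0118). Those of Rpl29 and Tm7sf3 were kept with any 1 rESC or serum array left out. With the 2 states fitted alone, only Tm7sf3 of the 8 kept its call against serum (adjusted p = 0.00858). Rpl29 then had an adjusted p of 0.0154 and Spry4 of 0.0328. Rpl29, a ribosomal protein gene, read 5.95, 6.59, 10.20, 5.95 and 5.97 in rESCs and 10.24 to 11.23 (median 10.36) in ESCs in 2i/LIF (-3.56, adjusted p = 0.00123; -4.39 without J2.3). J2.3 alone sat at the 2i/LIF level, and the same held for Zfp330, which read 4.32, 4.40, 9.47, 4.39 and 4.61 in rESCs and 8.73 to 9.85 (median 9.36) in ESCs in 2i/LIF (-3.87; -4.92 without J2.3).

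Man2b1, a lysosomal mannosidase, and Psmd8, a proteasome subunit, had the same split, with J2.3 at 8.53 and 9.74 and the other rESC lines at 5.60 to 6.07 and 6.76 to 7.55. Man2b1 lost its call with any of 8 and Psmd8 with any of 10 arrays left out (adjusted p up to 0.02 and 0.029), though both had lower p-values without J2.3 (5.35e-06 and 5.99e-06). The other probe of Rpl29 was also lower (-1.58, adjusted p = 0.00093), whereas that of Zfp330 changed by 0.15 and that of Man2b1 by 0.06, and neither was called. Tm7sf3 was at background on all 5 rESC arrays, J2.3 included, and at least 3.94-fold lower (adjusted p = 4.91e-06). Kif23, a mitotic kinesin, read 8.05, 7.32, 8.15, 5.20 and 6.57 in rESCs and 8.88 to 10.24 (median 9.76) in ESCs in 2i/LIF (-2.67, adjusted p = 0.000917), but its 2 other probes changed by -0.49 and -0.11. Ccne1 was higher in rESCs than in serum as well, by 1.15 (adjusted p = 0.00136, at most 0.00588 with any 1 rESC or serum array left out), while in serum it read 6.80 to 7.77 (median 7.01). With the 2 states fitted alone this call was lost (adjusted p = 0.0139).

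No probe passed the test for an effect of Blimp1 genotype on the difference. With the interaction of genotype and culture fitted over the 11 arrays, 0 of 13516 probes were called (limma, 0%), and 431 had an unadjusted p under 0.05. The smallest p was that of Pla2g1b, a secreted phospholipase, with an interaction of 1.87 (SE 0.261, adjusted p = 0.255). Pla2g1b read 10.13, 10.30, 10.34, 10.62 and 10.20 in rESCs of both genotypes, while in ESCs in 2i/LIF it read 8.73, 8.44 and 8.65 in the null lines and 10.55, 10.21 and 10.15 in the heterozygous lines. Next were St8sia5 (-1.61), Fxyd6 (-3.17), Alg8 (1.46) and Rps3 (-2.59), each with an adjusted p of 0.9991. Fxyd6 was called higher in rESCs in the pooled comparison (2.36, adjusted p = 0.0079), but not with any of 7 arrays left out (adjusted p up to 0.0233). With 2 heterozygous and 3 null rESC lines, an absence of calls does not show that the genotypes act alike. Prdm1, which encodes Blimp1, was not analysed here.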

How the data were processed

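RNA of 5 rESC and 6 ESC 2i/LIF lines was read on Illumina Mouse WG-6 beadchips (version 2). The authors deposited the mean bead intensity of each probe, not background-corrected or normalized, with a detection p-value against the negative controls of its array. They also deposited a table on a scale close to log2, variance-stabilized and quantile-normalized in lumi, which was used here only as an alternative. Scanner software and the authors' tool versions: not given in the sources used here. Of 45281 probes in the intensity table the 20482 of the authors' table were named through the platform annotation, 17604 with 1 gene symbol, 8 with several and 2870 with none, and symbols were updated through their gene identifiers for 17584. The 24799 other probes were detected on no array. Columns of samples outside the list analysed here (2) were not used.

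Intensities were background-corrected (normexp, offset 16), quantile-normalized and taken to log2 with neqc of limma 3.58.1 in R 4.3.3. Probes entered the test with a detection p under 0.01 on at least 5 of the 11 arrays, and a gene was read on its brightest probe over these arrays unless its probe was ranked. lmFit and eBayes gave two-sided p-values with Benjamini-Hochberg adjustment over all probes tested, called under 0.01, and the fit was tested on simulated data. The methods state no test for this comparison. Normalizations over 17 arrays (with serum) and 23 arrays (with epiSC and MEF) placed the levels. A fold written as at least is the brighter group's mean over that of the dimmer group's arrays, each taken at the higher of its own signal and the lowest signal detected there. Named genes were the markers, genes the study names, the 12 largest rises and 12 largest falls without overlap, up to 4 called and 2 other genes per list, the 8 probes apart from both ESC cultures and the 5 smallest interaction p-values, and some further list members named with values seen. The members and lists were chosen with earlier results of these data known. Promoters are from RefSeq (GRCm38.p6).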

Additional observations from a re-analysis of the deposited data

Results flagged for a closer look

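For 158 of the genes named in the text, each group was searched for an array far from all others of its group (Dixon's ratio at its 95% value), and 36 of 316 groups had one. A rate of 1 in 20 would give 15.8, but the genes were chosen with these values seen, so the counts are descriptions and no excess was tested. Of these 25 were rESC groups and 19 were set by J2.3 alone, 12 high and 7 low. Values are normalized log2 signals.

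J2.3 was the high rESC line for Apcdd1 (6.45), Krt18 (9.91), Inhba (10.58), Tpm2 (8.77), Serpinf1 (11.44), Lox (10.03), 2510009E07Rik (5.29), Dnmt3l (12.99), Rpl29 (10.20), Zfp330 (9.47), Man2b1 (8.53) and Psmd8 (9.74). It was the low rESC line for Etv5 (7.94), Pou5f1 (11.24), Esrrb (11.17), Fads1 (9.75), Tdrkh (6.69), Kit (6.58) and Rps3 (12.02). J2.3 was also the rESC line with the highest share of MEF signal.

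Among the other rESC lines BL7 stood apart for Prdm14 (7.74), Gbp2 (7.25), Osm (6.28) and Psmb8 (5.74), BL6 for Lrp2 (6.87) and BL2 for Phlda2 (10.84). Among ESCs in 2i/LIF PAN1 stood apart for Lin28a (6.74), Cebpb (6), Cd3d (7.35), Dazl (7.12) and Rpl29 (11.23), PUM3 for Rarg (4.86) and Cldn6 (6.86), B12 for Etv4 (7.57) and Psmd8 (9.99), CHE4 for Fads1 (11.28) and JAG2 for Cd44 (4.92).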

How the results depend on the processing

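Among 158 of the genes named in the text, no call changed direction under any alternative run. The 2538 calls between rESCs and ESCs in 2i/LIF ranged from 1917 (without BL2) to 3127 (without J2.3) with 1 array left out. They became 4555 at an adjusted p under 0.05, 1214 with a 2-fold minimum, 391 in heterozygous and 648 in null lines alone. With the replicate number as a block 1639 probes were called. Same-numbered lines of the 2 groups correlated at 0.392, -0.113, 0.342, -0.396 and 0.0462 in their deviations, and 2 of 5 correlated best with their own number, so the numbers do not pair the samples. The block ended the call of 18 of these 158 genes, filtering no dim probes that of 19, median scaling that of 13 and the authors' value table that of 8.

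Calls against ESCs in serum numbered 369, 26 when the 2 states were fitted alone, and 39 to 1294 with 1 array left out. The median change of the FGF-ERK list was 1.73, and 1.12 with no background correction, 1.28 with offset 50 and 0.892 in the authors' value table. That of the WNT list was -1.77, and -0.94, -1.18 and -0.72 in the same order, and -0.25 with no filter. That of the core list was 0.372 with median scaling and that of the epiblast list 0.252 with no filter. Signal over background limits the low genes, whose change is compressed, and 1 array of each line in a medium limits every p-value.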
